A study of Homo sapiens with 16 samples.

Results

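Messenger RNA levels of 10 genes of the epithelial-mesenchymal transition (EMT) and of breast cancer stem cells were followed in the human MDA-MB-231 line, which was established from a triple-negative breast cancer. The genes are the transcription factors ZEB1, ZEB2, SNAI1, SNAI2 and TWIST1, the cytoskeletal and adhesion proteins VIM and CDH2, the surface markers CD44 and CD24, and the receptor kinase AXL. They were taken by symbol from tables of 60658 genes, and each symbol matched 1 row in each of the 4 tables. RNA-seq was done on wild-type cells (WT, genotype label Wild type) and on cells of the same line with BMAL1 knocked out (KO, genotype label BMAL1 -/-), a transcription factor of the circadian clock whose gene symbol is ARNTL. Cells of each genotype were left as control or treated with a drug. Cisplatin forms platinum crosslinks in DNA, doxorubicin intercalates into DNA and traps topoisomerase, and tunicamycin causes endoplasmic reticulum stress by stopping the first step of N-glycan assembly. The 16 samples form 8 groups of 2 replicates, called biological in the labels, and doses or times were not stated in the sources used. The labels name no clones, so an effect of genotype and one of clone or culture cannot be told apart. The authors deposited 1 table per treatment, and it holds 1 FPKM value per group (fragments scaled to transcript length and to the total of fragments), so that levels of different genes can be compared. No spread between replicates can be given, and the only tests are those of the authors, made with Cuffdiff between KO and WT cells within a table. Called genes are those with q of at most 0.05 in these tests. The tables were normalized separately, so values set across treatments carry no test.

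In EMT, epithelial cells lose E-cadherin junctions and gain a motile, vimentin-rich form. ZEB1 and ZEB2 are zinc finger and homeodomain repressors, SNAI1 (Snail) and SNAI2 (Slug) are zinc finger repressors with a SNAG domain, and TWIST1 is a basic helix-loop-helix factor. These factors bind E2-box sequences in epithelial genes such as CDH1, and ZEB mRNAs are held down by the miR-200 family. VIM (vimentin) is the intermediate filament of mesenchymal cells, and CDH2 (N-cadherin) is the cadherin that takes the place of E-cadherin in many mesenchymal cells. CD44 is the receptor for hyaluronan and CD24 is a small, heavily glycosylated protein held in the membrane by a lipid anchor. High CD44 with low CD24 is the classical surface pattern of breast cancer stem cells and of basal-like lines such as MDA-MB-231. AXL is a receptor tyrosine kinase of the TAM family that is bound by GAS6 and is a common mark of mesenchymal, drug-tolerant cells.

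Promoter windows of the members are shown for the genes with the lowest KO levels relative to WT (CD24 and CD44) and for those whose window holds an E2-box (ZEB1 and AXL). Each run is the 250 bases before the most upstream RefSeq start site (GRCh38.p14), written 5′ to 3′ on the strand of the gene, and capitals mark CACCTG or its complement CAGGTG. The CD24 window is chr6:106975628-106975877 (minus strand), that of CD44 is chr11:35138921-35139170 (plus), that of ZEB1 is chr10:31318167-31318416 (plus) and that of AXL is chr19:41218973-41219222 (plus).
CD24: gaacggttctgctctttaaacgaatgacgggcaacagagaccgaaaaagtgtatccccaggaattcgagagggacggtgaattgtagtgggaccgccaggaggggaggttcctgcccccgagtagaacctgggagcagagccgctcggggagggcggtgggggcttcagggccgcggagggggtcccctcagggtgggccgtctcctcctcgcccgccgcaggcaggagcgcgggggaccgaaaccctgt
CD44: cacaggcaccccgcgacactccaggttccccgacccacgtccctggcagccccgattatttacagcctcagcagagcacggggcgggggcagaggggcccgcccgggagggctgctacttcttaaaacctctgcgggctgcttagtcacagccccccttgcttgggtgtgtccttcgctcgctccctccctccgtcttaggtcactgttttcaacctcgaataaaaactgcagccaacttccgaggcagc
ZEB1: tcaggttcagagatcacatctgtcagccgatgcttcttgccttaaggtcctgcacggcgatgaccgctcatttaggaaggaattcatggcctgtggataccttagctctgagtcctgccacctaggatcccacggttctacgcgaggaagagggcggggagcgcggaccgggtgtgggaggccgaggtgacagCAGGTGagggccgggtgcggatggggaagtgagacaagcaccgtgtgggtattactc
AXL: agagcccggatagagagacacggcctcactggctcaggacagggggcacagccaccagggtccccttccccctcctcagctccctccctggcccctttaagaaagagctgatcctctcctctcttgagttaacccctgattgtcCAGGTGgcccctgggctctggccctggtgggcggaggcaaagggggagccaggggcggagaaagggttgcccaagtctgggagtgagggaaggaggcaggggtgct
RefSeq windows from 250 bases before to 50 bases after a start site were found for 7 of the 10 members, 17 windows in all, and none was found for SNAI1, SNAI2 and TWIST1. The E-box CACGTG, which BMAL1 binds with CLOCK and which reads the same on both strands, was in 0 of the 17 windows, beside 7.26% of 35116 windows of all genes. CACCTG, read on both strands and unable to overlap with CACGTG, was in 20.6% of all windows. It was found in the windows of 2 of 7 ZEB1 starts, 1 of 3 CD24 starts and 1 of 2 AXL starts, and in none of VIM, CDH2, CD44 and ZEB2. A match is a match of letters only.

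The knocked-out gene, ARNTL, had KO values under the WT values in every treatment, going from 5.67 to 0.889 in control, 1.26 to 0.941 with cisplatin, 1.31 to 0.474 with doxorubicin and 3.25 to 2.24 with tunicamycin. In the authors' deposited table the difference passed the test in control (q = 0.000213) and doxorubicin (q = 0.00509) but not with cisplatin (q = 0.467) or tunicamycin (q = 0.0810). The labels do not say where ARNTL was edited, and transcripts with a small edit would still be counted. Whether this plays a part in the KO values was not tested. With cisplatin and tunicamycin the knockout thus rests on the labels. As a rough sign of depth, which mixes with scaling, the 5th percentile of FPKM values above 0 in WT control was 1.35 to 2.74 times that of the other 7 groups, a larger ratio standing for a deeper group. Mitochondrial mRNAs, a sign of RNA quality, made up 3.16% to 9.71% of summed FPKM, with doxorubicin highest (9.71% in WT, 9.37% in KO).

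The mesenchymal label of the line was checked against defining markers. VIM, CD44, AXL and ZEB1 were present in all 8 groups, while E-cadherin (CDH1) was at most 0.349 FPKM (KO control) and listed at 0 in WT control and WT tunicamycin. GRHL2, a factor that holds the epithelial state, was listed at 0 in 7 groups and at 0.00673 in KO doxorubicin. The adhesion molecule EPCAM was low but present, at 3.93 to 6.33 FPKM in WT and 1.03 to 2.07 in KO groups. Of 20 epithelial genes read, CDH1 and EPCAM among them, 14 were at 1 FPKM or more in WT or KO control. In WT control the keratins KRT8 (402), KRT18 (356) and KRT19 (299) were abundant, and CLDN4 was at 24.3 and CLDN7 at 16.5 FPKM. Others were low or near 0 there, such as CLDN3 (2.67), OCLN (2.14), MUC1 (1.44), CRB3 (0.13), ST14 (0.0817) and RAB25 (0). The mesenchymal markers CDH2 and TWIST1 were at or near 0 as well. The line thus held some markers of each state and lacked others. The extraction protocol speaks of fibroblast lines, so 12 fibroblast markers were read as well. DCN and MFAP5 were listed at 0 in all 8 groups, and LUM, FAP, PDGFRA, COL3A1 and POSTN were at most 0.0584 FPKM in any group. The summed level of the 12 genes was 4.34 to 20.4 FPKM in WT and 13.4 to 39.2 in KO groups, most of it FBLN1, COL1A1 and PDGFRB. Of 4 tested fibroblast markers in control, 4 were called higher in KO cells, beside 22.7% of all tested genes. The part of these markers in the differences of the members was not tested.

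The members spanned the whole range of expression. VIM was among the most abundant mRNAs of the cells, at 4434 FPKM in WT and 4033 in KO control, where it ranked 7 and 6 among all genes. AXL and CD44 followed at 515 and 432 FPKM in WT control. CD24 (25.5) and ZEB1 (15.2) lay more than an order of magnitude below them in WT control. SNAI2 (3.60), ZEB2 (1.81) and SNAI1 (1.74) were low. TWIST1 was listed at 0 in all 8 groups, and CDH2 at 0 to 0.0191 FPKM, so neither was tested by the authors in any table. All of 10 genes used by every cell, ACTB and GAPDH among them, had values above 0 in every group. Thus 5 of 10 members (ZEB1, SNAI1, VIM, CD44 and AXL) were at 1 FPKM or more in all 8 groups, ZEB2 and CD24 were so in 7 and SNAI2 in 6.

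**Figure D1:**
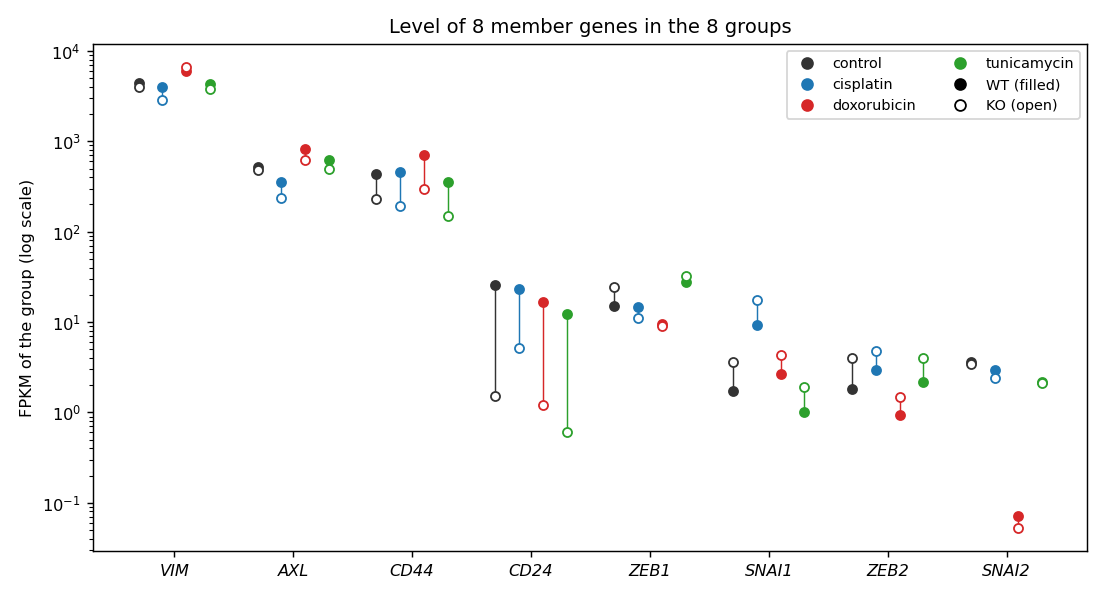
FPKM (log axis) of the 8 members above 1 FPKM in some group, with filled points for WT, open points for KO and 1 colour per treatment; each point is the authors' value for a group of 2 replicates, and no spread is known. CD24 shows the longest WT to KO distance in control (25.5 to 1.51), and SNAI2 drops out of the range of the others with doxorubicin (0.0710 and 0.0527).

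The width of these ranges differed widely between members. VIM varied least among the members with no value of 0, with its highest group (KO doxorubicin, 6639.7) at 2.30 times its lowest (KO cisplatin, 2883). The ratio of highest to lowest was 3.47 for AXL, 3.64 for ZEB1, 4.78 for CD44 and 5.10 for ZEB2. It was 17.3 for SNAI1, 41.9 for CD24 and 68.4 for SNAI2. For CD44 and CD24 the 4 KO groups were the 4 lowest and the 4 WT groups the 4 highest. The share of all genes separated in this way was not counted, so the separation cannot be called particular to these members. For SNAI1 both cisplatin groups were the highest, for SNAI2 both doxorubicin groups were the lowest, and for ZEB1 both tunicamycin groups were the highest. Which neighbours in these orders differ beyond replicate spread cannot be said without values per library.

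The comparison of KO with WT cells asks how the members differ between the genotypes under each treatment. In control, 7 of 8 tested members were called, 3 higher in KO cells (SNAI1, ZEB2 and ZEB1) and 4 lower (CD24, CD44, VIM and AXL). Of all 12978 tested genes in control, 43.8% were called, 22.7% higher and 21.1% lower. With cisplatin, 7 of 8 were called, 2 higher (SNAI1, ZEB2) and 5 lower (CD24, CD44, AXL, VIM and ZEB1), beside 49.6% of all tested genes (25.4% higher and 24.2% lower). With doxorubicin, 5 of 7 were called, 2 higher (SNAI1 and VIM) and 3 lower (CD24, CD44 and AXL), beside 45.1% of all (24.4% higher and 20.7% lower). With tunicamycin, 7 of 8 were called, 3 higher (SNAI1, ZEB2 and ZEB1) and 4 lower (CD24, CD44, AXL and VIM), beside 49.3% of all (27.2% higher and 22.1% lower). The median log2 ratio of KO over WT over the tested members, from the authors' deposited table, was -0.07 in control, -0.44 with cisplatin, -0.09 with doxorubicin and -0.14 with tunicamycin, and that of all tested genes was 0.007, 0.020, 0.042 and 0.035. Abundant genes pass such a test at small ratios, and at least 2-fold calls were 3 of 8 tested members in control, 2 of 8 with cisplatin, 2 of 7 with doxorubicin and 2 of 8 with tunicamycin. Among all tested genes such calls made up 11.7%, 10.3%, 12.6% and 10.2%. The smallest q of a table is shared by 3044 to 4267 genes, so it does not rank the members.

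**Figure D2:**
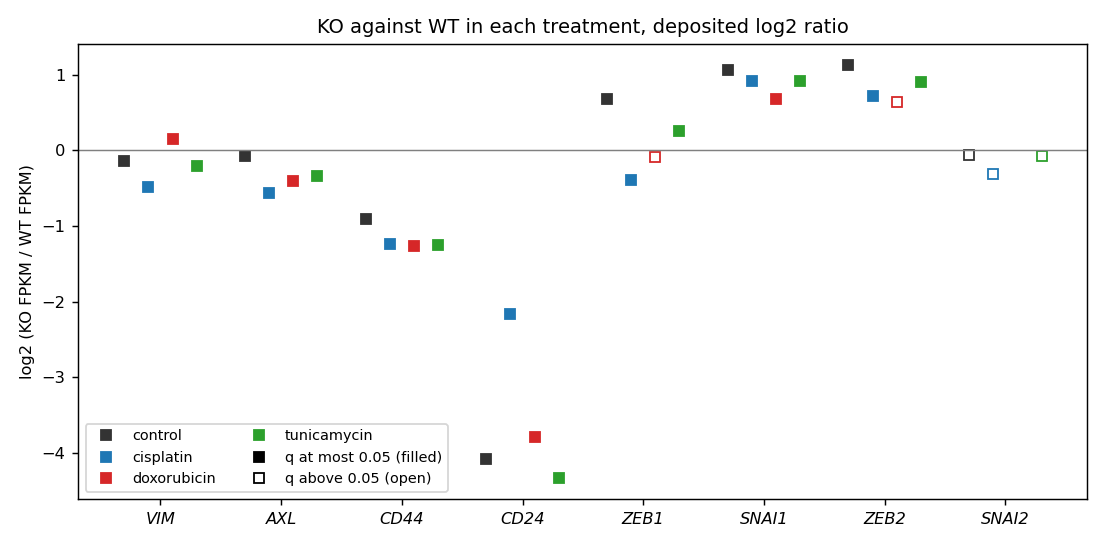
Deposited log2 ratio of KO over WT FPKM for the 8 members that were tested, 1 colour per treatment, filled squares where q was at most 0.05 and open squares where it was not; SNAI2 was not tested with doxorubicin and has no point there. CD24 lies lowest in every treatment, SNAI1 and ZEB2 lie above 0 in all 4, and ZEB1 and VIM lie on both sides of 0.

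CD24 had the largest difference of all members under every treatment. Its FPKM went from 25.5 in WT to 1.51 in KO cells in control, 23.3 to 5.20 with cisplatin, 16.6 to 1.21 with doxorubicin and 12.3 to 0.608 with tunicamycin. Every KO value lay below every WT value, a separation whose share among all genes was not counted. KO cisplatin was the highest of the KO groups. The level in WT cells was 16.9 times that in KO cells in control, 4.48 times with cisplatin, 13.7 times with doxorubicin and 20.1 times with tunicamycin. In the authors' deposited table the log2 ratios were -4.08 (q = 0.000213), -2.16 (q = 0.000167), -3.78 (q = 0.000186) and -4.33 (q = 0.000173). CD24 (ENSG00000272398, chromosome 6, 106969831 to 106975627, GRCh38, minus strand, the whole gene) has near-identical pseudogene copies, among which fragments may be split. With the rows of these copies added, an alternative chosen after the data were seen, the ratio was -4.14, -2.18, -3.85 and -3.72, since the KO tunicamycin level was 0.955 in place of 0.608. In bulk RNA, fewer cells with the marker and less of its mRNA in each cell cannot be told apart.

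CD44, the other marker of the stem cell pattern, was lower in KO cells too, by a smaller factor. Between WT and KO cells its FPKM went from 432 to 229 in control, 457 to 193 with cisplatin, 712 to 296 with doxorubicin and 355 to 149 with tunicamycin. The lowest WT value, with tunicamycin, was above the highest KO value, with doxorubicin, and the share of all genes so separated was not counted. The log2 ratio in the authors' deposited table was -0.91 in control (q = 0.000213), -1.24 with cisplatin (q = 0.000167), -1.26 with doxorubicin (q = 0.000186) and -1.25 with tunicamycin (q = 0.000173). CD44 lies on chromosome 11 (35138870 to 35232402, GRCh38, plus strand) among genes that were lower in KO cells as well. The median log2 ratio of the tested genes that start within 5 Mb of it was -0.68 in control (30 genes), -0.52 with cisplatin (32), -0.62 with doxorubicin (26) and -0.50 with tunicamycin (32), and 87.5% to 90.6% of them were below 0. The part of this shared shift in the CD44 difference was not tested. A gene level sums over splice forms, so the standard and variant forms of CD44 are not separated. ESRP1, a splicing factor that favours the variant forms, was at most 1.33 FPKM (WT tunicamycin). The related ESRP2 was above it in every group, at up to 2.89 FPKM (KO cisplatin).

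Since CD24 was reduced by more than CD44, the ratio of CD44 to CD24 FPKM was larger in KO than in WT cells under each treatment. It was 16.9 in WT and 152 in KO control, 19.6 and 37.0 with cisplatin, 42.9 and 245 with doxorubicin and 29.0 and 244 with tunicamycin. With the CD24 copies added, the KO tunicamycin ratio was 156 in place of 244, near that of KO control. Cisplatin gave the smallest distance between the genotypes. CD44 was the more abundant mRNA of the pair in all 8 groups.

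**Figure D3:**
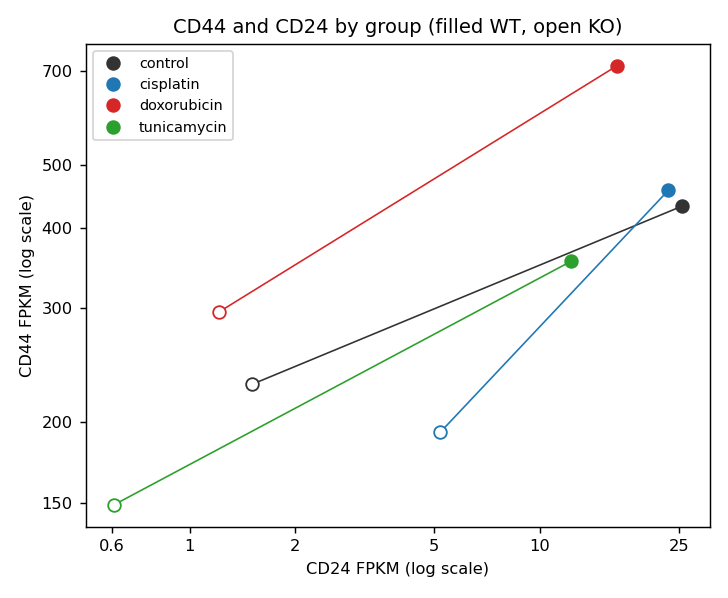
CD44 FPKM against CD24 FPKM (both axes logarithmic) in the 8 groups, with filled points for WT, open points for KO and a line joining the genotypes of a treatment; each point is 1 group value. All KO points lie to the lower left of their WT points, and KO cisplatin stands apart from the other KO points at 5.20 FPKM of CD24.

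SNAI1 was higher in KO cells in all 4 tables. From WT to KO cells it went from 1.74 to 3.64 in control, 9.30 to 17.5 with cisplatin, 2.68 to 4.28 with doxorubicin and 1.01 to 1.90 with tunicamycin. KO cells were above WT cells within every treatment, but the cisplatin groups of both genotypes were above all others. By the authors' deposited table the log2 ratio was 1.06 in control (q = 0.000777), 0.91 with cisplatin (q = 0.000167), 0.68 with doxorubicin (q = 0.00176) and 0.91 with tunicamycin (q = 0.00310). SNAI1 lies on chromosome 20 (49982999 to 49988886, plus strand), and genes within 5 Mb had median log2 ratios of -0.06 to 0.16.

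ZEB2 had the same direction and was called in 3 of 4 tables. Its FPKM went from 1.81 to 3.96 in control, 2.94 to 4.80 with cisplatin, 0.943 to 1.47 with doxorubicin and 2.15 to 4.02 with tunicamycin. These are low levels, and the doxorubicin pair was the lowest. In the authors' deposited table the log2 ratio was 1.13 in control (q = 0.00129), 0.71 with cisplatin (q = 0.00265) and 0.90 with tunicamycin (q = 0.000173), while 0.64 with doxorubicin did not pass (q = 0.127). Only 6 or 7 genes were tested within 5 Mb of ZEB2 (chromosome 2, 144364364 to 144524583, minus strand), with medians of 0.11 to 0.63.

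ZEB1, the more abundant of the ZEB genes, changed direction with treatment. Between WT and KO cells its FPKM went from 15.2 to 24.3 in control and 27.4 to 32.6 with tunicamycin, but from 14.7 to 11.2 with cisplatin, and it was 9.53 and 8.94 with doxorubicin. The log2 ratio in the authors' deposited table was 0.68 in control (q = 0.000407) and 0.25 with tunicamycin (q = 0.00805), and -0.39 with cisplatin (q = 0.000910). The doxorubicin ratio of -0.09 did not pass (q = 0.643) in the authors' deposited table. The ratio of ZEB1 to ZEB2 FPKM was smaller in KO than in WT cells in each treatment, at 8.40 and 6.15 in control, 5.01 and 2.33 with cisplatin, 10.1 and 6.10 with doxorubicin and 12.7 and 8.09 with tunicamycin. ZEB1 (chromosome 10, 31318495 to 31529814, plus strand) is overlapped on the other strand by ZEB1-AS1, at 1.38 to 5.16 FPKM over the groups, and the use of strand in counting is not stated.

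SNAI2 gave no call in any table. Its FPKM was 3.60 and 3.46 in WT and KO control, 2.96 and 2.39 with cisplatin, 0.0710 and 0.0527 with doxorubicin and 2.19 and 2.09 with tunicamycin. By the authors' deposited table the log2 ratio was -0.06 in control (q = 0.833), -0.31 with cisplatin (q = 0.141) and -0.07 with tunicamycin (q = 0.781), and the gene was not tested with doxorubicin. SNAI1 was therefore below SNAI2 in WT control (ratio 0.484) and about level with it in KO control (1.05), and above it in both cisplatin groups (3.14 in WT and 7.30 in KO). TWIST1, listed at 0 throughout, lies in a part of chromosome 7 (19020991 to 19117672) where 23 to 28 tested neighbours within 5 Mb had median log2 ratios of -1.44 to -1.13.

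The mesenchymal filament gene VIM passed the test in every table at small ratios. From WT to KO cells it went from 4434 to 4033 in control, 4012 to 2883 with cisplatin, 5982 to 6639.7 with doxorubicin and 4339.8 to 3745 with tunicamycin. KO cells were below WT cells in 3 treatments and above them with doxorubicin. In the authors' deposited table the log2 ratio was -0.14 in control (q = 0.000213), -0.48 with cisplatin (q = 0.000167), 0.15 with doxorubicin (q = 0.000186) and -0.21 with tunicamycin (q = 0.000173). VIM-AS1, which overlaps VIM on the other strand, was at 0.712 to 4.49 FPKM, a small level beside that of VIM.

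AXL was lower in KO cells in all 4 tables, least so in control. Its FPKM went from 515 to 487 in control, 351 to 237 with cisplatin, 822 to 617 with doxorubicin and 617 to 489 with tunicamycin. The genotypes overlapped across treatments, since the doxorubicin KO value equalled that of WT tunicamycin at this precision. The log2 ratio in the authors' deposited table was -0.08 in control (q = 0.000213), -0.57 with cisplatin (q = 0.000167), -0.41 with doxorubicin (q = 0.000186) and -0.34 with tunicamycin (q = 0.000173). The control ratio shows how small a difference passes the authors' test at such levels. CDH2 was 0 and 0.0112 FPKM in control, 0.00697 and 0.00863 with cisplatin, 0 and 0.0191 with doxorubicin and 0.00821 and 0.0169 with tunicamycin, which is too low to compare. Of the cadherins, CDH4 (R-cadherin) was far above CDH2, at 49.6 and 44.7 FPKM in control and 3.68 and 1.51 with cisplatin.

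The response to each drug was read within a genotype as log2(FPKM + 1) in drug minus control, a scale that understates the change of low genes and that has no test here. It was set beside all genes at 1 FPKM or more in either group, and 8 members reached that level. Scaling the 8 groups to a common median in 5030 abundant genes shifted these responses by -0.09 to 0.17, and of the members it changed only the sign of VIM in WT tunicamycin (-0.03 to 0.12).

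Under cisplatin, SNAI1 stood out in both genotypes. It was 5.33 times its control level in WT (1.74 to 9.30) and 4.80 times in KO cells (3.64 to 17.5), or 1.91 and 1.99 on the log2 scale, and 0.991% and 0.423% of all genes had a response as high or higher. CD24 was 1.51 in control and 5.20 with cisplatin in KO cells (1.31), but 25.5 and 23.3 in WT cells (-0.12). ZEB1 was 24.3 and 11.2 in KO cells (-1.05), beside 15.2 and 14.7 in WT cells (-0.05). AXL was lower with cisplatin in both, at -0.55 in WT and -1.04 in KO cells. Responses of at least 2-fold were thus 1 member higher (SNAI1) and 0 lower in WT, and 2 higher (SNAI1 and CD24) and 2 lower (ZEB1 and AXL) in KO cells. Among all genes, 6.81% were that much higher and 4.63% lower in WT, and 5.41% and 7.25% in KO cells.

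Doxorubicin gave lower values for a large share of all genes, 41.3% of them at least 2-fold lower in WT and 42.0% in KO cells, with medians of -0.72 and -0.74. At least 2-fold higher were 4.39% and 4.16%. SNAI2 was 3.60 in control and 0.0710 with doxorubicin in WT cells, and 3.46 and 0.0527 in KO cells. These values gave -2.10 and -2.08 on the log2 scale, or -1.38 and -1.35 relative to the medians of all genes. On this scale 15.7% of all genes in WT and 17.0% in KO cells were as low or lower. ZEB1 (-1.35) and ZEB2 (-1.01) were at least 2-fold lower in KO cells, as were 42.0% of all genes there. They lay -0.61 and -0.27 from the KO median, at the 32.1 and 41.8 percentiles, and ZEB2 was at -0.94 after scaling. In WT cells ZEB1 and ZEB2 were at -0.62 and -0.53, near the median of all genes. The abundant members had higher values with doxorubicin, with CD44 at 0.72 in WT and 0.37 in KO, AXL at 0.67 and 0.34, and VIM at 0.43 and 0.72. SNAI1 was at 0.42 and 0.19. Of 8 members, 0 were at least 2-fold higher in either genotype, and 1 in WT (SNAI2) and 3 in KO cells (SNAI2, ZEB1 and ZEB2) were at least 2-fold lower.

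With tunicamycin 0 of 8 members were 2-fold higher or lower on this scale, beside 4.64% of all genes higher and 2.33% lower in WT, and 3.77% and 2.16% in KO cells. CD24 came closest, at 25.5 and 12.3 FPKM in WT (-1.0, just inside the bound), and 1.51 and 0.608 in KO cells (-0.64). The count of 0 depends on the pseudocount, since CD24 without one was 2.08-fold lower in WT and 2.48-fold lower in KO cells, and with 0.1 FPKM it was at -1.05 and -1.18. ZEB1 was 15.2 in control and 27.4 with tunicamycin in WT (0.81) and 24.3 and 32.6 in KO cells (0.40). SNAI1 was lower in both, at -0.45 in WT and -0.68 in KO cells, and SNAI2 was at -0.53 in both. CD44 was at -0.28 and -0.62.

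**Figure D4:**
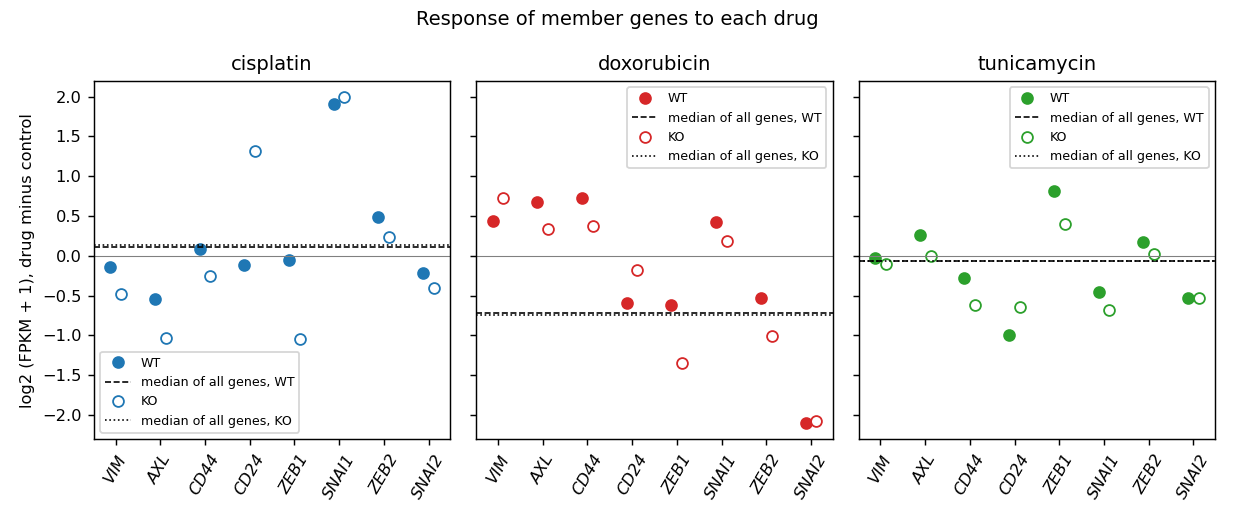
Difference of log2(FPKM + 1) between each drug and control for 8 members, with filled points for WT and open points for KO, and dashed (WT) and dotted (KO) lines at the median of all genes at 1 FPKM or more; no error is known. SNAI1 is near 2 in both genotypes with cisplatin, and SNAI2 is near -2 in both with doxorubicin, where the median of all genes is at -0.72 and -0.74.

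The difference of the KO to WT log2 ratio between a drug and control sets the responses of the genotypes side by side. It is a value with no test, taken over genes tested in both tables. Of 8 members with cisplatin, 1 was at least 1 higher and 1 at least 1 lower, beside 3.67% and 7.46% of all genes. CD24 went from -4.08 in control to -2.16 with cisplatin, a difference of 1.91 at the 99.4 percentile of 12510 genes. This difference rests on a low KO control level of 1.51 FPKM, and with a pseudocount of 1 it was 1.43. ZEB1 went from 0.68 to -0.39, a difference of -1.07 at the 6.69 percentile. With doxorubicin, 0 of 7 members reached a difference of 1 in either direction, beside 4.46% of all genes higher and 7.23% lower, and ZEB1 had the largest (-0.77). With tunicamycin, 0 of 8 did, beside 2.87% higher and 4.04% lower, and ZEB1 was again largest (-0.43). The differences for SNAI1 were -0.15 with cisplatin, -0.38 with doxorubicin and -0.15 with tunicamycin, and those for CD44 were -0.33, -0.35 and -0.34, from ratios in authors' deposited tables that share the same control values.

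Other genes of the pathway were read from 12 lists by role, each as counts of calls in KO against WT cells. Every list is to be read beside the shares of all tested genes called higher and lower. These were 22.7% and 21.1% in control, 25.4% and 24.2% with cisplatin, 24.4% and 20.7% with doxorubicin, and 27.2% and 22.1% with tunicamycin. A count near these shares is not particular to its list. Other transcription factors tied to EMT were called 3 higher and 2 lower of 10 tested in control, 3 and 4 of 10 with cisplatin, 6 and 2 of 8 with doxorubicin and 3 and 5 of 10 with tunicamycin. FOXQ1, a forkhead factor, went from 10.1 to 24.2 in control and was 13.2 and 14.7 with cisplatin, where it was not called. RUNX2, a runt factor of bone and invasion, went from 3.42 to 6.95 in control. Factors that hold the epithelial state were mostly below the level of testing, with 1 higher and 1 lower call of 4 tested in control, 3 and 1 of 7 with cisplatin, 1 and 0 of 2 with doxorubicin and 1 and 1 of 6 with tunicamycin.

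Epithelial genes that ZEB and SNAI factors can repress gave calls in both directions, 4 higher and 5 lower of 14 tested in control, 3 and 9 of 15 with cisplatin, 4 and 4 of 14 with doxorubicin and 5 and 6 of 15 with tunicamycin. Desmoplakin (DSP), the plaque protein of desmosomes, was called lower by at least 2-fold in each table, with FPKM going from 9.98 to 1.39 in control, 16.6 to 2.08 with cisplatin, 13.4 to 2.03 with doxorubicin and 10.4 to 1.51 with tunicamycin. EPCAM was the other such gene, at 5.09 to 1.29 in control. Keratin 19 (KRT19) went from 299 to 159 in control. In the other direction, KRT18, KRT8 and the tight junction protein occludin (OCLN), which were singled out after their values were seen, were called higher in each table. In control KRT18 went from 356 to 563, KRT8 from 402 to 471 and OCLN from 2.14 to 4.22. The OCLN call with doxorubicin (1.1 to 1.78) lay at the bound, with q = 0.05 in the authors' deposited table. The log2 ratio of KRT8 was only 0.09 with cisplatin. Mesenchymal effector genes were called 11 higher and 2 lower of 18 tested in control, 5 and 9 with cisplatin, 9 and 5 with doxorubicin and 13 and 3 with tunicamycin, with median log2 ratios of 0.43, -0.14, 0.31 and 0.50. At least 2-fold higher in all 4 tables were TAGLN (transgelin, an actin-binding protein of smooth muscle, 10.0 to 99.3 in control), SPARC (osteonectin, a secreted matrix protein, 2.07 to 13.8) and S100A4 (a calcium-binding protein of motile cells, 13.9 to 52.8). CDH11 went from 12.5 to 35.4 in control and 12.7 to 26.0 with tunicamycin, was 12.3 and 11.3 with cisplatin with no call, and went from 11.7 to 7.97 with doxorubicin.

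**Figure D5:**
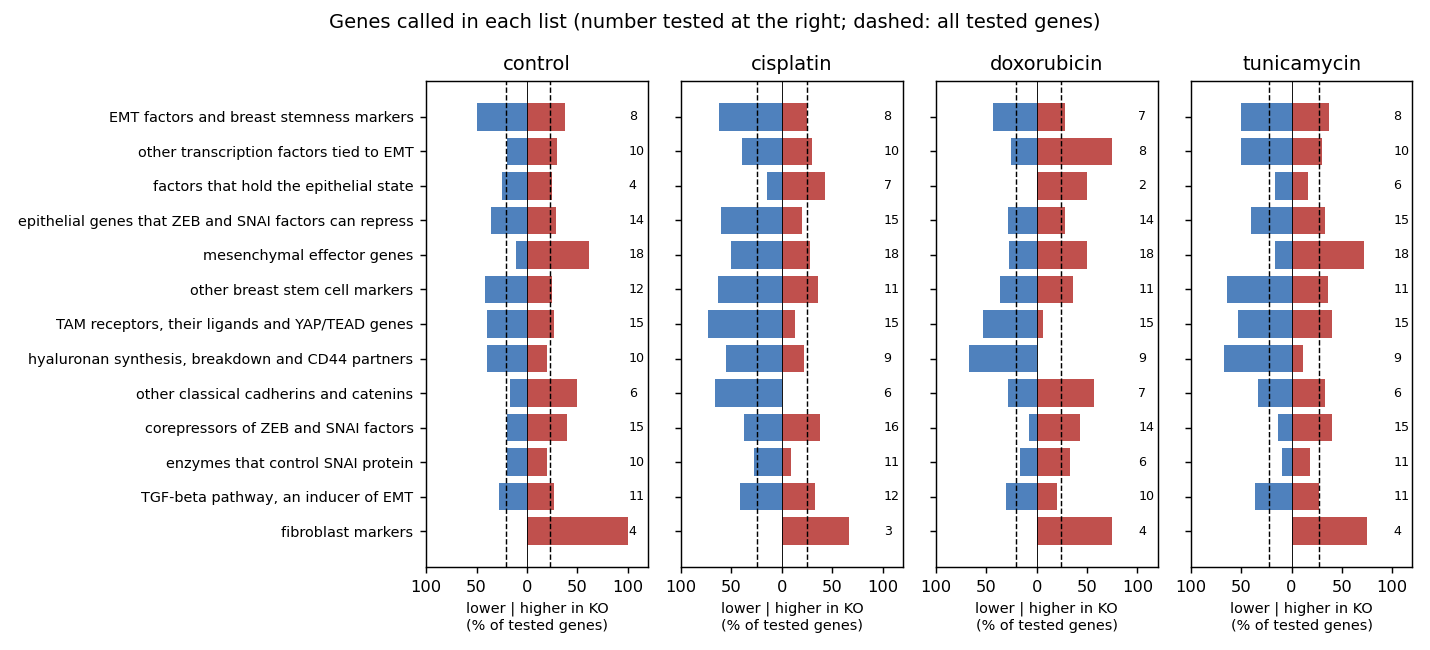
Share of tested genes called higher (red, to the right) or lower (blue, to the left) in KO cells for the members and 12 lists, 1 panel per treatment, with the number tested at the right and dashed lines at the shares among all tested genes. Mesenchymal effector genes lean to higher calls in control, doxorubicin and tunicamycin but not with cisplatin, and bars over fewer than 10 genes rest on few calls.

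Other breast stem cell markers were called 3 higher and 5 lower of 12 tested in control, 4 and 7 of 11 with cisplatin, 4 and 4 of 11 with doxorubicin and 4 and 7 of 11 with tunicamycin. The microtubule kinase DCLK1, a tuft cell and stem cell marker, went from 9.29 to 1.23 in control, and integrin beta 3 (ITGB3) from 0.935 to 3.90, and both differed at least 2-fold in the same direction in all 4 tables. ALDH1A3, the main source of ALDH activity in many breast cancer lines, went from 12.9 to 6.59, and PROCR, a protein C receptor of mammary stem cells, from 28.6 to 55.2 in control. Genes of hyaluronan synthesis, breakdown and CD44 partners were called 2 higher and 4 lower of 10 tested in control, 2 and 5 of 9 with cisplatin, 0 and 6 of 9 with doxorubicin and 1 and 6 of 9 with tunicamycin. Among them the hyaluronidase TMEM2 went from 28.7 to 9.34, the hyaluronan receptor HMMR from 15.3 to 7.35 and ezrin (EZR), which ties CD44 to actin, from 258 to 137 in control.

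TAM receptors, their ligands and YAP/TEAD genes were called 4 higher and 6 lower of 15 tested in control, 2 and 11 with cisplatin, 1 and 8 with doxorubicin and 6 and 8 with tunicamycin. TYRO3, a TAM receptor like AXL, went from 15.2 to 7.23 in control, while the TEAD factors TEAD4 (27.8 to 60.6) and TEAD2 (6.92 to 3.76) differed in direction. GAS6, the ligand of AXL, was singled out after its values were seen, and it was called lower in each table, at 118 to 98.7 in control, 82.8 to 43.3 with cisplatin, 215 to 161 with doxorubicin and 107 to 73.2 with tunicamycin. Corepressors of ZEB and SNAI factors were called 6 higher and 3 lower of 15 tested in control, 6 and 6 of 16 with cisplatin, 6 and 1 of 14 with doxorubicin and 6 and 2 of 15 with tunicamycin. The ZEB partners CTBP1 (76.8 to 111) and CTBP2 (40.5 to 59.1) and the SNAI partner LIMD1 (4.80 to 7.61) were higher in control, and with cisplatin all 3 were called lower (92.8 to 78.6, 30.0 to 21.0 and 5.75 to 4.32). HDAC1 and SMARCA4 were called in the same directions as these. HDAC2 (147 to 118) and KDM1A (50.5 to 43.9) were instead called lower in control. With cisplatin both were called higher (127 to 161 and 44.9 to 52.1).

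Enzymes that control SNAI protein were called 2 higher and 2 lower of 10 tested in control, 1 and 3 of 11 with cisplatin, 2 and 1 of 6 with doxorubicin and 2 and 1 of 11 with tunicamycin. The kinase LATS2 went from 12.8 to 9.11, the ubiquitin ligase FBXO45 from 19.2 to 14.4 and the lysyl oxidase LOXL2 from 167 to 214 in control. Classical cadherins and catenins were called 3 higher and 1 lower of 6 tested in control, 0 and 4 of 6 with cisplatin, 4 and 2 of 7 with doxorubicin and 2 and 2 of 6 with tunicamycin, with the catenin CTNND1 at 22.0 to 30.5 in control. The TGF-beta pathway was called 3 higher and 3 lower of 11 tested in control, 4 and 5 of 12 with cisplatin, 2 and 3 of 10 with doxorubicin and 3 and 4 of 11 with tunicamycin. TGFBI, a matrix protein induced by TGF-beta, was at least 2-fold higher in all 4 tables (44.5 to 141 in control), and the ligand TGFB2 (27.7 to 58.7) and the coreceptor TGFBR3 (2.34 to 7.85) were higher in control. Fibroblast markers were called 4 higher of 4 tested in control, 2 of 3 with cisplatin, 3 of 4 with doxorubicin and 3 of 4 with tunicamycin, with 0 lower, and PDGFRB (1.69 to 6.83 in control) was at least 2-fold higher in each.

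Genes whose levels followed a member most closely were sought by Pearson's r of log2(FPKM + 1) over the 8 groups, among 10177 genes of 5 FPKM or more in some group. These are descriptions over 8 values that share tables and scaling. Closest to ZEB1 were PLEC (plectin, r = 0.989), CTBP2 (0.987), a corepressor named above, and ARHGAP32 (0.985). CTBP2 was highest in KO tunicamycin (103) and lowest in KO doxorubicin (12.7), as ZEB1 was. Closest to CD44 were the collagen receptor MRC2 (0.988), CERCAM (0.981) and PRSS12 (0.978), with MRC2 at 14.3 and 3.33 FPKM in WT and KO control. CD24 was followed by FST (follistatin, an activin antagonist, 0.978), SMC2 (a condensin subunit, 0.978) and RHOD (0.977), with FST at 43.6 and 8.37 in control and 37.4 and 17.6 with cisplatin. AXL was followed by the adhesion molecule L1CAM (0.982), MYOF (myoferlin, 0.981) and COL12A1 (0.980). VIM was followed by ACOT7 (0.982), CD46 (0.979) and LAPTM5 (0.969), and SNAI1 by the acetyltransferase KAT2A (0.982), MICB (0.982) and HOXC5 (0.973). Many genes came close, since 81 to 166 genes had r above 0.9 with each of these members.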

How the data were processed

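RNA-seq of 16 samples in 8 groups of 2 was used. Per the labels' protocols, libraries came from total RNA with an mRNA kit and were sequenced paired-end. The submitters' processing notes name build hg38, Cuffdiff and Cufflinks, the aligner STAR 2.5.3, Trimmomatic 0.35 and FastQC 0.11.5. Neither annotation nor strand setting is given in the sources used here. The authors deposited 4 tables with 1 FPKM value per group, per the file headers. The deposited log2 ratio is KO over WT with no pseudocount, the deposited score is the Cuffdiff test statistic, and the deposited q-value adjusts the p-value by Benjamini-Hochberg over a table's tested genes. Recomputing both gave differences of at most 4.64e-05 and 5.25e-07. The order of genotypes in the table names, with the codes inside, set which value is WT and which KO. Depth per library is not given, so no interval or replicate error can be given.

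Members and lists were chosen with earlier results of these data known. The rule named all members, and in each list up to 3 called genes of 5 FPKM or more with the largest ratio in control and up to 3 that differed at least 2-fold alike in all tables. MIR200CHG had no row, and 1 gene that the rule named is not reported here. Positions are from GENCODE 29 (GRCh38) by gene ID, 1-based. Drug responses used a pseudocount of 1 FPKM. The functions for adjustment, correlation and motif search were tested on simulated data. Python 3.11.15, numpy 2.4.6 and pandas 2.3.3 were used. The alternatives were q at most 0.01, a floor of 1 FPKM, pseudocounts of 0.1 and 1, centring, scaling, Spearman's rho and a distance of 2 Mb.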

Additional observations from a re-analysis of the deposited data

Results flagged for a closer look

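ZEB1 and VIM were the members called in opposite directions under different treatments in the authors' deposited tables. The log2 ratio of ZEB1 was 0.68 in control, 0.25 in tunicamycin and -0.39 in cisplatin, so that cisplatin lay -1.07 from control, and tunicamycin lay 0.64 above cisplatin. The log2 ratio of VIM was 0.15 in doxorubicin and -0.14, -0.48 and -0.21 in control, cisplatin and tunicamycin. Doxorubicin thus lay 0.29 above control and 0.63 above cisplatin, and tunicamycin lay -0.36 from doxorubicin. These differences between treatments were not tested, since each table holds 1 value per group.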

How the results depend on the processing

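No paired analysis was possible because the tables hold 1 value per group and no value per replicate, and for the same reason no replicate could be left out. No symbol of a member repeated, so summing repeated rows could not be run. The counts of called members (7, 7, 5 and 7 for control, cisplatin, doxorubicin and tunicamycin) were the same at q at most 0.01 and with a floor of 1 FPKM. All 31 log2 ratios of tested members kept their sign after centring on the median of tested genes. A pseudocount cannot change a sign, but it shrinks the ratios of low genes. With a pseudocount of 1 in control, ZEB2 was at 0.82 in place of 1.13 and SNAI1 at 0.76 in place of 1.06. Both were then below 2-fold, while CD24 was at -3.4. Genes called over the 12 lists numbered 75, 94, 72 and 88, and 69, 84, 62 and 85 at q at most 0.01. Drug responses of at least 2-fold numbered 9 of 48, 11 with a pseudocount of 0.1, where CD24 with tunicamycin was added in both genotypes, and 8 after scaling. With a pseudocount of 0.1 the SNAI2 response to doxorubicin was -4.44 in WT and -4.54 in KO cells. With a pseudocount of 1 the CD24 ratio in tunicamycin minus that in control was 0.36 in place of -0.25. Within 2 Mb, ZEB2 had 2 tested neighbours, with medians of 2.98 to 3.68, those of TWIST1 reached -2.71 with doxorubicin, and those of CD44 were -0.59 to -0.48. By Spearman's rho, which ties often over 8 groups, CTBP2 and ARHGAP32 had no gene closer to ZEB1 (rho of 1.0), MRC2 and CERCAM had 1 gene closer to CD44 and L1CAM had 2 closer to AXL, while the other genes named had 12 or more.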
